A study of Mus musculus with 13 samples.

Results

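Alb (albumin), Afp (alpha-fetoprotein) and Gc (vitamin D-binding protein) are genes of the albumin family, and their values were followed across mouse kidneys with and without Pkd1 or Pkd2 and in a cultured kidney cell line. The 3 members were taken by gene symbol from a kidney table of 28183 genes, and Gc alone was also found among the 2016 genes of the cell table. They were selected on their values in the 4 kidney groups, so all their differences between groups are given as a description, with standard errors and without p-values. The further family gene on the same chromosome, Afm (afamin, a carrier of vitamin E), was not among the members picked and was tested. It belongs to a list of neighbours that was chosen with earlier results of these data known. Alb encodes the main protein of blood plasma, made by hepatocytes. Afp is its fetal counterpart, made in the yolk sac and fetal liver and switched off after birth. Gc carries vitamin D metabolites and binds free actin in plasma. Proteins of this family that pass the glomerular filter are taken up from the urine by the proximal tubule, through the receptors megalin (Lrp2) and cubilin (Cubn).

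The kidneys came from C57BL/6 mice in 4 groups of 2 libraries each. Pkd1 knockout kidneys (KSP/Cre+;Pkd1f/f) and Pkd1 control kidneys (KSP/Cre-;Pkd1f/f) were taken at postnatal day 10. Pkd2 knockout kidneys (Pkhd1/Cre+;Pkd2f/f) and Pkd2 control kidneys (Pkhd1/Cre-;Pkd2f/f) were taken at postnatal day 20. Pkd1 and Pkd2 are the genes mutated in dominant polycystic kidney disease. All 4 groups carry floxed alleles, and the controls lack Cre. KSP is the kidney-specific cadherin promoter, and both it and the Pkhd1 promoter drive Cre in tubule epithelium, so cells outside those tubules keep their Pkd1 or Pkd2. Both Pkd2 knockout samples are titled "(WT)" although the genotype given for them has Cre and the description calls them Pkd2KO, which was followed. The cells were mIMCD-3, a mouse inner medullary collecting duct line, transfected with 10 nM of a gapmer (an antisense oligonucleotide that leads to cleavage of its target RNA). The gapmer was against the long noncoding RNA Hoxb3os in 3 libraries. It was a control gapmer at the same dose in 2, called control cells below. All cells were kept in DMEM with serum and harvested after 48 h. The labels leave it unsaid whether replicates came from separate animals or cultures, and p-values then reflect no more than the spread among these libraries, which may be technical.

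The deposited kidney value of a gene is an estimated CPM divided by a scaling factor of its library. The 8 kidney libraries held 30.7 M to 94.4 M recovered reads, and 1 read was worth 0.00820 to 0.0280 of a value. Pkd1 had values of 24.1 and 26.0 in Pkd1 knockouts, against 31.1 and 22.7 in Pkd1 controls. Pkd2 had values of 50.7 and 53.3 in Pkd2 knockouts, against 69.0 and 61.2 in Pkd2 controls. Such whole-gene values include exons outside the deletion and cells without Cre, so they check little. The sexes were not balanced: the female-specific RNA Xist stood at 346 to 448.5 in Pkd1 control replicate 2, Pkd2 knockout replicate 2 and both Pkd2 controls, and at 27.7 or less in the other 4 libraries. The summed value of 4 Y-linked genes was 149.5 to 183 in those 4, at most 0.104 in the Pkd2 libraries with high Xist, and 10.4 in Pkd1 control replicate 2. Pkd1 control replicate 2 thus held high Xist with some Y-linked RNA, and both Pkd1 knockouts held Y-linked RNA with Xist at 25.3 and 27.7, and a mixture of sexes in these 3 libraries was not tested. Pkd2 control replicate 2 held adrenal transcripts, with a summed value of 148.9 over 8 adrenal genes against 4.11 or less elsewhere. The summed value of 15 proximal tubule genes was 681.6 and 1006 in Pkd1 knockouts, 2953 and 3016 in Pkd1 controls, 3761 and 1617 in Pkd2 knockouts, and 6495 in each Pkd2 control. In whole kidneys, fewer cells of a type and less RNA per cell cannot be told apart.

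All 4 family genes lie on mouse chromosome 5 of GRCm38, over 1.14 Mb that hold 9 protein-coding genes of the kidney table. Gc is at chr5:89417522-89457898 on the minus strand. Alb (chr5:90460897-90476602), Afp (chr5:90490737-90508907) and Afm (chr5:90518932-90553543) follow each other on the plus strand, 14.1 kb and 10.0 kb apart. Afp overlaps the antisense gene Gm43449, and since no source used here gives the strand setting of the counting, the reads of that pair cannot be told apart. The 250 bases before each gene's start (RefSeq, GRCm38.p6) are printed 5′ to 3′ on the gene's own strand, to set the start regions of the 4 genes side by side. Capitals mark the letters TATAAA, the core of the TATA box, which places the start of transcription in many tissue-restricted genes.
Gc, chr5:89457899-89458148, minus strand: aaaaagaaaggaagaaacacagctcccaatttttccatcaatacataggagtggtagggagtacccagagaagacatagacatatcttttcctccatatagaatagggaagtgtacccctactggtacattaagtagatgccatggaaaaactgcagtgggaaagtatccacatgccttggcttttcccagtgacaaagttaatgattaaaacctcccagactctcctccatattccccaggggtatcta
Alb, chr5:90460620-90460869, plus strand: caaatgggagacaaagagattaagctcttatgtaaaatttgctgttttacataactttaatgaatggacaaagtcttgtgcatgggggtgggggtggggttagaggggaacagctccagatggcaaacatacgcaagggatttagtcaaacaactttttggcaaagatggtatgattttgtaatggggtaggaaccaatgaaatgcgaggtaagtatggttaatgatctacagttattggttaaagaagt
Afp, chr5:90490464-90490713, plus strand: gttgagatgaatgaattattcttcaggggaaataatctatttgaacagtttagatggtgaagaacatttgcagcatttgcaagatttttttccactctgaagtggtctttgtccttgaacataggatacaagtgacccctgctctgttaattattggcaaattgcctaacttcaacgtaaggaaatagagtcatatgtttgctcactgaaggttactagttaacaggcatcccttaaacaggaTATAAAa
Afm, chr5:90518699-90518948, plus strand: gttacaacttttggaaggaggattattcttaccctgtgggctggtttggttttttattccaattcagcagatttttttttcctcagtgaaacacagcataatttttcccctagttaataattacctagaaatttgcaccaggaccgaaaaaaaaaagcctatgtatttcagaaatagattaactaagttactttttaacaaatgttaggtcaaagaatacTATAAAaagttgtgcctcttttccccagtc
The windows of Afp and Afm each held TATAAA on the gene's strand, starting 7 and 30 bases before the RefSeq start and 30 and 13 bases before the start in the kidney table. The windows of Gc and Alb did not hold these letters, and none of the 4 held them on the other strand. The Alb and Afp windows end before the starts in the kidney table (90460869 against 90460897 and 90490713 against 90490737). The bases between were not searched. Of 32817 distinct RefSeq windows of the same 250 bases, 2493 (7.60%) held TATAAA on the gene's strand and 2054 (6.26%) on the other. These matches are letters in a window and not measured binding.

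Alb RNA was low in all knockout kidneys and varied among the controls. In Pkd1 knockouts Alb had values of 0.434 and 0.783 (25 and 37 reads), against 0.730 and 7.22 in Pkd1 controls (89 and 330 reads). The groups overlapped, since Pkd1 control replicate 1 lay between the knockouts and replicate 2 stood well above both. In Pkd2 knockouts Alb had values of 0.392 and 0 (14 and 0 reads), against 18.2 and 11.7 in Pkd2 controls (699 and 529 reads). Here both controls were far above both knockouts, and the library without an Alb read could have held up to 0.0694, the worth of 3 reads there. The Pkd2 knockout mean of 0.196 ± 0.277 was 1.32% of the control mean of 14.9 ± 4.59 (SD, n = 2 each). On the log2(value + 1) scale the difference was −3.72 ± 0.59 (SE) for Pkd2 knockouts minus controls and −1.24 ± 0.59 for Pkd1 knockouts minus controls. Leaving out Pkd1 control replicate 2 brought the Pkd1 difference to −0.11, and leaving out Pkd1 control replicate 1 brought it to −2.36. For Pkd2 the same step gave −4.02 to −3.43, and −4.02 was the value without the adrenal-containing control. The added 1 compresses values this low: with 0.1 added instead, the Pkd2 difference was −6.05. Transcripts of fat differed between the Pkd2 groups in the same direction as Alb. The summed value of 8 markers of brown and white fat was 24.7 and 7.56 in Pkd1 knockouts, 15.1 and 3.94 in Pkd1 controls, 10.5 and 0.624 in Pkd2 knockouts, and 32.3 and 58.7 in Pkd2 controls. Of 6 tested, 2 fell and 0 rose in Pkd2 knockouts, where 8.13% and 9.54% of all genes tested did. In Pkd1 knockouts 0 fell and 1, Lep, rose, where 5.48% and 5.11% of all genes tested did. Ucp1 (named after its values were seen, like the other fat genes), the uncoupling protein of brown fat, had values of 1.71 and 0 in Pkd2 knockouts against 15.2 and 24.4 in Pkd2 controls, a difference of −3.63 ± 0.69 (limma adjusted p = 0.0094). That call and the one of Cidea, a lipid droplet protein gene (−2.49 ± 0.53, limma adjusted p = 0.015), were lost without Pkd2 knockout replicate 2 or Pkd2 control replicate 2 (limma adjusted p = 0.061 to 0.12). The fat marker Elovl3 was at 0 in both Pkd2 groups, and Pkd1 control replicate 2, the Pkd1 library with the most Alb, had the lowest fat sum of the Pkd1 libraries. The part of fat tissue in the Alb values was not tested. The 3 libraries with Alb above 5 were among the 4 with high Xist, and the remaining one of those, Pkd2 knockout replicate 2, had no Alb read. Pkd1 control replicate 2, on which the Pkd1 difference rests, is the library with both Xist and Y-linked RNA. The part of sex in these values was not tested.

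**Figure D1:**
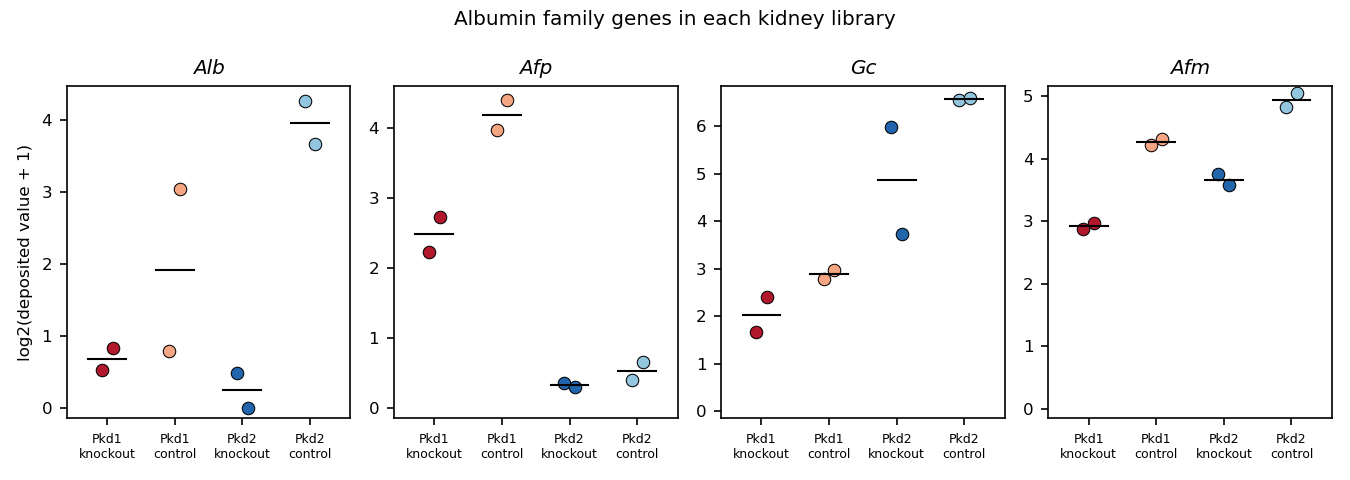
Values of Alb, Afp, Gc and Afm in each kidney library (points) with the mean of each group (bars), as log2(deposited value + 1), with 2 libraries per group and a separate vertical scale for each gene. Alb was high in both Pkd2 controls and 1 Pkd1 control, Afp mainly at day 10, Gc mainly at day 20, and Afm was lower in the knockouts of both models.

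Transcripts of other plasma proteins made by hepatocytes moved in both directions. Of 30 hepatocyte genes, 13 passed the filter on low values (at least 1 in at least 2 libraries). In Pkd1 knockouts 1 of these rose and 2 fell, where 10.6% of all 14637 genes tested were called (5.11% higher and 5.48% lower, limma adjusted p below 0.05), and their median log2 difference was −0.53 against −0.00207 for all genes. In Pkd2 knockouts 3 rose and 2 fell, where 17.7% of all genes were called (9.54% higher and 8.13% lower), with a median of −0.28 against −0.00816. Ahsg (fetuin-A, a plasma inhibitor of mineralisation) followed Alb across libraries, with r = 0.99 over the 8 libraries. Ahsg had values of 0.122 and 0.402 in Pkd1 knockouts and 0.32 and 3.00 in Pkd1 controls. It had 0.168 and 0 in Pkd2 knockouts against 4.44 and 2.85 in Pkd2 controls, and fell there by 2.08 ± 0.44 (limma adjusted p = 0.014). Ahsg passed the filter through control libraries only. Since it shares the pattern of Alb, its call is no independent support for the Alb values. As for Alb, Pkd1 control replicate 2 was the high library of its group and Pkd2 knockout replicate 2 had no read. The fibrinogen chains, which form the clot, went the other way in Pkd2 knockouts. Fgg had values of 26.9 and 33.0 in Pkd2 knockouts against 1.46 and 1.5 in Pkd2 controls, a rise of 3.64 ± 0.38 (limma adjusted p = 0.00098). Fga and Fgb rose there by 2.60 ± 0.50 and 2.05 ± 0.25 (limma adjusted p = 0.010 and 0.0017), so all 3 chains were higher. In Pkd1 knockouts the fibrinogen differences were 1.02 ± 0.38 for Fgg, −0.01 ± 0.50 for Fga and −0.37 ± 0.25 for Fgb, and none passed the test.

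The hepatocyte-list genes with the highest mean values were Serpina1a, Trf, Ttr and Fga, and their libraries ranked differently from those of Alb. Serpina1a (alpha-1-antitrypsin) had values of 13.0 and 27.4 in Pkd1 knockouts, 48.4 and 33.0 in Pkd1 controls, 41.5 and 36.9 in Pkd2 knockouts, and 68.5 and 53.1 in Pkd2 controls, and passed the test in neither model; its reads may be shared with near-identical Serpina1 genes. Trf (transferrin, the plasma iron carrier) differed by 0.46 ± 0.27 in Pkd1 knockouts and 0.54 ± 0.27 in Pkd2 knockouts and was not called. Ttr (transthyretin, a carrier of thyroid hormone and retinol) fell by 1.22 ± 0.25 in Pkd1 knockouts (limma adjusted p = 0.018) and differed by −0.28 ± 0.25 in Pkd2 knockouts. The other calls, named after their values were seen, were Apoa2, an apolipoprotein, lower by 1.93 ± 0.39 in Pkd1 knockouts and by 1.53 ± 0.39 in Pkd2 knockouts, and Hp (haptoglobin, which binds haemoglobin), higher by 1.96 ± 0.43 in Pkd1 knockouts. Some defining hepatocyte genes, also named after their values were seen, were at or near 0 in all libraries, and others had most of their few reads in the Pkd2 controls, as Alb did. The urinary protein gene Mup20 had no read in any library and Mup3 had 3 reads in 1 Pkd1 knockout. F2 (prothrombin) had 0 reads in all 4 knockout libraries, against 7 and 15 in Pkd1 controls and 16 and 18 in Pkd2 controls. Plg (plasminogen) had 0 and 1 reads in Pkd1 knockouts, 6 and 18 in Pkd1 controls, 2 and 1 in Pkd2 knockouts, and 24 and 19 in Pkd2 controls. Cps1, an enzyme of the urea cycle, had 1 and 0 reads in Pkd2 knockouts against 72 and 31 in Pkd2 controls, and at most 4 in each Pkd1 library. Cyp3a11, a drug-metabolising enzyme, had 2 and 0 reads in Pkd2 knockouts against 21 and 11 in Pkd2 controls, and Apoh, a plasma apolipoprotein, had 5 and 2 against 19 and 11, each with at most 3 in the Pkd1 libraries. Not all listed genes with few reads followed Alb. C8a had 0 and 14 reads in Pkd2 knockouts against 8 and 3 in Pkd2 controls, and Itih3 had 40 and 33 against 26 and 41. Over the whole list, 20 and 23 of 30 genes had a value above 0 in Pkd1 knockouts, 23 and 25 in Pkd1 controls, 23 and 20 in Pkd2 knockouts, and 27 and 28 in Pkd2 controls. The summed value of the list was 70.4 and 110.7 in Pkd1 knockouts, 147 and 136 in Pkd1 controls, 237.5 and 266 in Pkd2 knockouts, and 209 and 177 in Pkd2 controls. The part of liver RNA carried into the samples was not tested. Leaving out each kidney library in turn gave 0 called hepatocyte genes (without Pkd1 control replicate 2) to 3 in the Pkd1 comparison. It gave 2 (without Pkd2 control replicate 1) to 7 (without Pkd2 knockout replicate 1) in the Pkd2 comparison.

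**Figure D2:**
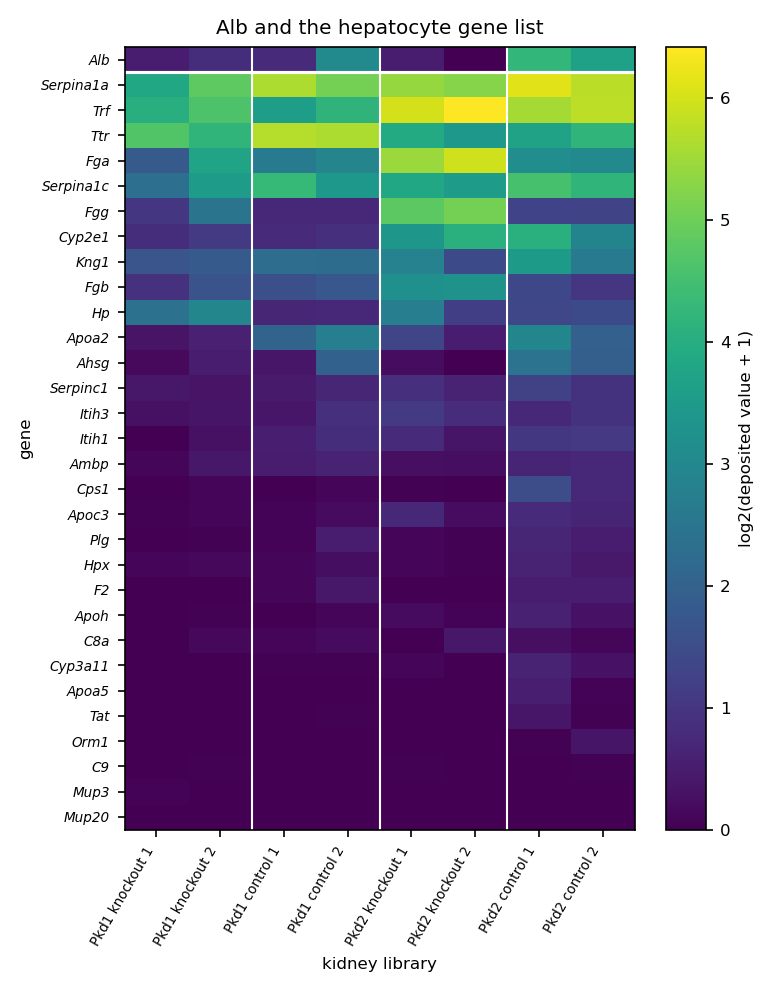
Alb (top row) and the 30 hepatocyte genes, ordered by mean value, in the 8 kidney libraries (columns, with white lines between groups); colour is log2(deposited value + 1). Ahsg resembles Alb, the fibrinogen genes Fga, Fgb and Fgg are brightest in the Pkd2 knockouts, and the lower rows are near 0.

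Afp RNA was a day 10 transcript in these kidneys, and it was lower in Pkd1 knockouts. Pkd1 knockouts had values of 3.68 and 5.61 (212 and 265 reads), against 14.6 and 20.0 in Pkd1 controls (1786 and 913 reads). The groups did not overlap, and the knockout mean of 4.64 ± 1.36 was 26.8% of the control mean of 17.3 ± 3.76 (SD, n = 2 each). The log2 difference was −1.70 ± 0.23 (SE), and −1.95 to −1.46 with each library left out. At day 20, Afp had values of 0.280 and 0.231 in Pkd2 knockouts (10 reads each), against 0.312 and 0.574 in Pkd2 controls (12 and 26 reads). These groups did not overlap either, but at 10 to 26 reads per library the log2 difference of −0.19 ± 0.23 was smaller than its error. The day 20 controls lay 39.1-fold below the day 10 controls in mean value, with a log2 difference of −3.66 ± 0.23. Age, floxed gene and Cre line differ together in that comparison and cannot be told apart. The sex markers differ there as well, since both day 20 controls had high Xist and Pkd1 control replicate 1 had Y-linked RNA with little Xist. This holds for every comparison of day 20 with day 10 controls. Afp was lower in both day 20 controls than in both day 10 controls, as were 31.2% of all genes tested, while Alb, Gc and Afm were higher in both, as were 31.1%.

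The 5 genes whose pattern over the 8 libraries was nearest to Afp, among 9495 genes with a mean value of at least 5, were Clec18a (a C-type lectin), Wt1 (a transcription factor of podocytes and the nephron's precursors), Golim4, Igf2 (fetal growth factor) and Podxl2, with r of 0.97 to 0.99. These libraries share group, age and sex, so r describes a pattern and nothing more. Clec18a had values of 9.90 and 15 in Pkd1 knockouts, 30.1 and 40.8 in Pkd1 controls, 1.93 and 1.64 in Pkd2 knockouts, and 2.05 and 3.66 in Pkd2 controls. Igf2 had values of 22.5 and 19 in Pkd1 knockouts, 46.0 and 47.8 in Pkd1 controls, 2.80 and 2.2 in Pkd2 knockouts, and 5.30 and 4.28 in Pkd2 controls. Both genes were low at day 20. The Igf2 difference was −1.14 ± 0.18 in Pkd1 knockouts and −0.73 ± 0.18 in Pkd2 knockouts, a description only, since its pattern chose it. Igf2 belongs to a list of 12 oncofetal genes, active in fetal tissues and again in tumours, of which 11 were tested. In Pkd1 knockouts 2 of them rose and 1 fell, with a median of 0.18. In Pkd2 knockouts 5 rose and 1 fell, with a median of 0.63. Of all genes tested, 5.11% rose and 5.48% fell in Pkd1 knockouts (median −0.00207), and 9.54% rose and 8.13% fell in Pkd2 knockouts (median −0.00816). The risers included the RNA-binding protein genes Igf2bp2 (0.89 ± 0.20 in Pkd2 knockouts, limma adjusted p = 0.019) and Igf2bp3 (0.88 ± 0.18 and 0.73 ± 0.18 in Pkd1 and Pkd2 knockouts, limma adjusted p = 0.020 and 0.026) and the surface protein gene Cd24a (0.86 ± 0.20 in Pkd2 knockouts, limma adjusted p = 0.022). Igf2 was the listed gene counted as lower in each model, and since it is also named for its likeness to Afp, it is no independent support for the Afp values. In day 20 against day 10 controls, 7 of the 11 were lower and 0 higher, where 12.3% of all genes were called (5.04% higher and 7.26% lower), and the median was −1.44 against −0.00141. H19, the imprinted RNA beside Igf2 (named after its values were seen), was lower at day 20 by 3.83 ± 0.27. With 1 library left out, the oncofetal counts ranged over 0 to 3 in the Pkd1 comparison and 0 to 6 in the Pkd2 comparison, and they were 0 without either Pkd1 control or without either Pkd2 control.

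**Figure D3:**
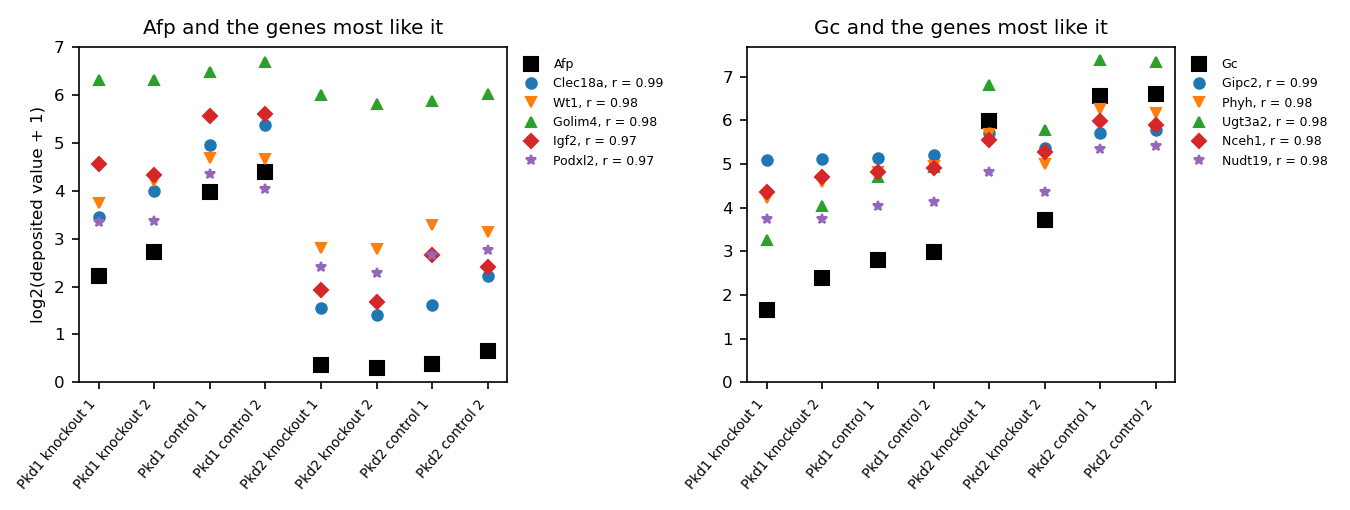
Afp (left) and Gc (right), as black squares, with the 5 genes nearest to each in pattern, in the 8 kidney libraries, as log2(deposited value + 1); the legend gives Pearson r over the 8 libraries. Afp and its nearest genes are high in the 4 day 10 libraries and highest in the Pkd1 controls, while Gc and its nearest genes are highest in the Pkd2 controls.

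Gc RNA was much higher at day 20 and lower in both knockouts. Pkd1 knockouts had values of 2.17 and 4.27 (125 and 202 reads), against 5.91 and 6.89 in Pkd1 controls (721 and 315 reads). Pkd2 knockouts had 62.7 and 12.2 (2238 and 528 reads), against 92.4 and 96.1 in Pkd2 controls (3556 and 4357 reads). Neither pair of groups overlapped, but the Pkd2 knockouts differed widely from each other. Knockout means were 3.22 ± 1.49 for Pkd1 and 37.5 ± 35.7 for Pkd2, against control means of 6.40 ± 0.689 for Pkd1 and 94.3 ± 2.62 for Pkd2 (SD, n = 2 each). The knockout mean was 50.4% of the control mean for Pkd1 and 39.7% for Pkd2. The log2 differences were −0.85 ± 0.59 for Pkd1 and −1.72 ± 0.59 for Pkd2. Leaving out Pkd2 knockout replicate 2 brought the Pkd2 difference to −0.58, and leaving out replicate 1 brought it to −2.85. Day 20 controls stood 14.7-fold above day 10 controls, with a log2 difference of 3.69 ± 0.59. As for Afp, age, floxed gene, Cre line and sex markers cannot be told apart there. Afp, Gc and Afm each had both knockouts below both controls in both models, as did 19.4% of all genes tested (29.2% for Pkd1 alone and 30.9% for Pkd2 alone), and Alb did so in the Pkd2 model only. Both knockouts stood above both controls for 29.1% of all genes tested in the Pkd1 model and 31.9% in the Pkd2 model.

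Proximal tubule genes were lower in the same libraries as Gc. Of the 15 proximal tubule genes, 10 fell and 0 rose in Pkd1 knockouts, and 9 fell and 0 rose in Pkd2 knockouts, with medians of −1.73 and −1.42, where 5.48% and 8.13% of all genes tested fell. Among them, Slc34a1 (the phosphate carrier) fell by 2.32 ± 0.28 in Pkd1 knockouts and 1.68 ± 0.28 in Pkd2 knockouts, and Slc5a2 (the glucose carrier SGLT2) fell by 2.52 ± 0.29 in Pkd1 knockouts and fell by 1.62 ± 0.29 in Pkd2 knockouts (limma adjusted p = 0.0025, 0.0053, 0.0024 and 0.0078). With 1 library left out, 3 (without Pkd1 control replicate 1) to 13 proximal tubule genes were called in the Pkd1 comparison and 1 (without Pkd2 control replicate 2) to 13 (without Pkd2 knockout replicate 1) in the Pkd2 comparison. Pkd2 knockout replicate 1, with the higher Gc, also had the higher summed value of this list. Kap was the highest listed gene in every library and weighs heavily on the sum. It made up 184.5 of 681.6 in Pkd1 knockout replicate 1 and 2969 of 6495 in Pkd2 control replicate 1. No sum without Kap was made. Set against that sum, Gc stood at 3.18 and 4.25 per 1000 in Pkd1 knockouts and 2.00 and 2.28 in Pkd1 controls. It stood at 16.7 and 7.55 per 1000 in Pkd2 knockouts and 14.2 and 14.8 in Pkd2 controls. On this scale Gc was not lower in the Pkd1 knockouts, and its Pkd2 knockouts lay on either side of the controls. Afp on the same scale was 5.40 and 5.57 per 1000 in Pkd1 knockouts and 4.96 and 6.62 in Pkd1 controls, and 0.0745 and 0.143 in Pkd2 knockouts and 0.0480 and 0.0883 in Pkd2 controls, so its groups overlapped in both models. Alb was 0.104 and 0 per 1000 in Pkd2 knockouts and 2.80 and 1.80 in Pkd2 controls, so its groups stayed apart there, but its Pkd1 groups overlapped at 0.637 and 0.778 per 1000 in knockouts and 0.247 and 2.39 in controls. The part of tubule loss in the members' values was not tested.

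The 5 genes nearest to Gc in pattern were Gipc2, Phyh (a peroxisomal enzyme of phytanic acid breakdown), Ugt3a2, Nceh1 and Nudt19, with r of 0.98 to 0.99 over the 8 libraries. Ugt3a2 had values of 8.53 and 15.4 in Pkd1 knockouts, 25.0 and 29.4 in Pkd1 controls, 111 and 53.9 in Pkd2 knockouts, and 167 and 161 in Pkd2 controls. Phyh had values of 17.6 and 23.1 in Pkd1 knockouts, 27.3 and 30.1 in Pkd1 controls, 50.8 and 31 in Pkd2 knockouts, and 76.1 and 71.4 in Pkd2 controls. Both were highest in the Pkd2 controls, as Gc was, and since they were chosen for that pattern no test is given. Among genes with a mean value of at least 5, the nearest to Alb were Ndufa8, Xpnpep3, Tdrp, Cox15 and Ap5s1. Their r was 0.94 to 0.95, and their ranges were smaller than that of Alb. Ahsg, at a mean value of 1.41, was below that floor and not compared, and its r with Alb was higher, at 0.99. Ndufa8, a subunit of respiratory complex I, had values of 16.3 and 14.4 in Pkd1 knockouts, 18.6 and 24.3 in Pkd1 controls, 17.9 and 14.9 in Pkd2 knockouts, and 29.3 and 29.1 in Pkd2 controls. Between members, r over the 8 libraries was 0.58 for Alb and Gc, −0.07 for Alb and Afp, and −0.71 for Afp and Gc.

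Afm fell in both models. It had values of 6.39 and 6.84 in Pkd1 knockouts against 17.8 and 19 in Pkd1 controls, and 12.5 and 10.9 in Pkd2 knockouts against 27.3 and 32.3 in Pkd2 controls. Both knockouts lay below both controls in each model. Per 1000 of the summed proximal tubule genes, however, Afm stood at 9.38 and 6.79 in Pkd1 knockouts against 6.02 and 6.29 in Pkd1 controls, and at 3.32 and 6.76 in Pkd2 knockouts against 4.21 and 4.98 in Pkd2 controls. On that scale Afm was not lower in Pkd1 knockouts, and its Pkd2 knockouts lay on either side of the controls. The log2 difference was −1.35 ± 0.16 for Pkd1 (limma adjusted p = 0.0028) and −1.28 ± 0.16 for Pkd2 (limma adjusted p = 0.0023), and their difference of −0.07 ± 0.23 did not pass the test (limma adjusted p = 0.99). Of all genes tested, 1 (0.00683%) passed that test of the difference between the models. Afm passed in all 15 alternative settings of each comparison, where its limma, DESeq2 or edgeR adjusted p ranged from 2.9e-08 to 0.035 for Pkd1 and from 3.2e-07 to 0.031 for Pkd2. Day 20 controls were 0.67 ± 0.16 above day 10 controls (limma adjusted p = 0.032). Afm was near Slc34a1 in pattern, with r = 0.98 over the 8 libraries, and overlaps the noncoding gene Gm42109 on the other strand. The genes nearest to Afm were Glud1, Ptprd, Slc22a23, Gcgr and Abat, with r of 0.99 each.

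The neighbours between and beside the family genes differed in direction. Of 5 tested neighbours, 0 were called in Pkd1 knockouts, where 10.6% of all genes tested were. In Pkd2 knockouts 1 was called higher and 1 lower, where 9.54% and 8.13% of all genes tested were. Slc4a4, the basolateral bicarbonate carrier of the proximal tubule and the gene before Gc, had values of 180 and 395 in Pkd1 knockouts, 425 and 519 in Pkd1 controls, 477 and 391 in Pkd2 knockouts, and 720.2 and 797 in Pkd2 controls. Both knockouts lay below both controls in each model, as for Afp, Gc and Afm, and r with Gc was 0.81 over the 8 libraries. It differed by −0.81 ± 0.35 in both Pkd1 and Pkd2 knockouts and was not called (limma adjusted p = 0.18 for Pkd1 and 0.15 for Pkd2). Without Pkd1 knockout replicate 2, Slc4a4 was called lower in Pkd1 knockouts (limma adjusted p = 0.042). Npffr2, the next gene after Gc, had values of at most 0.0231, and the predicted gene Gm9958, between Ankrd17 and Alb, had 0.382 to 0.882, and neither was tested. Adamts3, a procollagen protease, differed by 0.49 ± 0.16 in Pkd1 knockouts and by 0.58 ± 0.16 in Pkd2 knockouts (limma adjusted p = 0.041). The Pkd2 value missed the threshold in 13 of 15 alternative settings (limma, DESeq2 or edgeR adjusted p = 0.052 to 0.22), among them edgeR, DESeq2, no filter, and leaving out any single library other than Pkd2 knockout replicate 1. Cox18 and Ankrd17, the genes before Alb, differed by −0.06 ± 0.22 and −0.04 ± 0.19 in Pkd1 knockouts and by −0.06 ± 0.22 and −0.31 ± 0.19 in Pkd2 knockouts. Rassf6, past Afm, had values of 19.1 and 19.2 in Pkd1 knockouts against 13.6 and 13.0 in Pkd1 controls, and 8.61 and 6.45 in Pkd2 knockouts against 21.7 and 15.7 in Pkd2 controls. It fell by 1.2 ± 0.20 in Pkd2 knockouts (limma adjusted p = 0.0057) and differed by 0.50 ± 0.20 in Pkd1 knockouts (limma adjusted p = 0.15). The difference between the models was 1.70 ± 0.29 (limma adjusted p = 0.11), and without Pkd2 control replicate 1 the Pkd2 call was lost (limma adjusted p = 0.056).

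**Figure D4:**
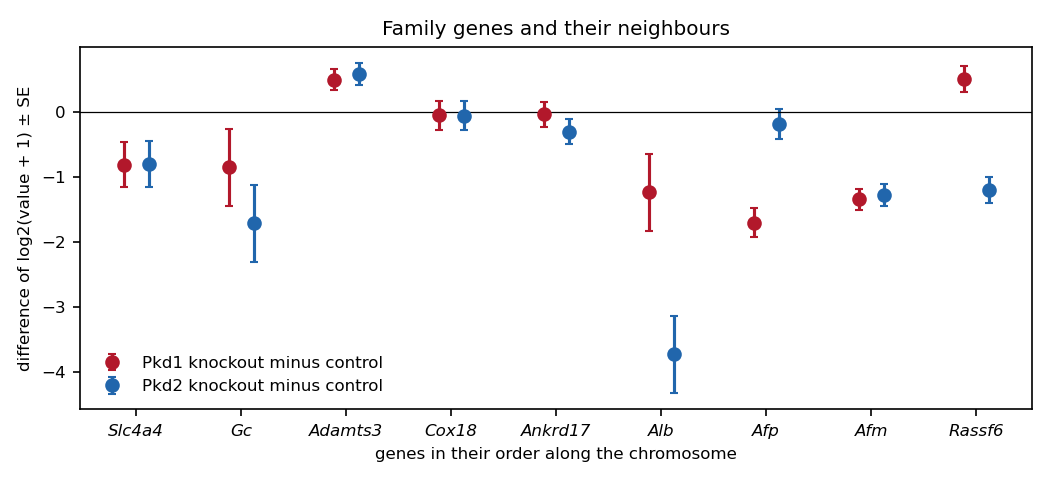
Difference between knockout and control kidneys in log2(deposited value + 1), with its standard error (bars), for the family genes and their neighbours in their order along the chromosome (evenly spaced); red is Pkd1 and blue Pkd2. The family genes Gc, Alb, Afp and Afm lie below 0 in both models, Afp in Pkd2 within its error, and Cox18 and Ankrd17 lie near 0.

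The listed transcriptional regulators, several of them known to act on these promoters in liver, changed in part. Of 14, 10 were tested. In Pkd1 knockouts 2 fell and 0 rose, and in Pkd2 knockouts 3 fell and 0 rose, with medians of −0.32 for Pkd1 and −0.19 for Pkd2. Over all genes tested 5.48% fell and 5.11% rose in Pkd1 knockouts, and 8.13% fell and 9.54% rose in Pkd2 knockouts, with medians of −0.00207 and −0.00816. Hnf4a, a nuclear receptor of hepatocytes and proximal tubule, had values of 51.1 and 73.4 in Pkd1 knockouts, 149 and 146 in Pkd1 controls, 149.6 and 88.5 in Pkd2 knockouts, and 244.1 and 248.6 in Pkd2 controls. It fell by 1.25 ± 0.27 in Pkd1 knockouts (limma adjusted p = 0.023) and by 1.09 ± 0.27 in Pkd2 knockouts (limma adjusted p = 0.026). Prox1, a homeobox factor of liver and lymphatic vessels, fell by 1.89 ± 0.33 in Pkd1 knockouts and 1.26 ± 0.33 in Pkd2 knockouts (limma adjusted p = 0.0097 and 0.032). Dbp, a circadian activator named for binding the albumin promoter, fell by 2.27 ± 0.25 in Pkd2 knockouts (limma adjusted p = 0.0011) and differed by −0.82 ± 0.25 in Pkd1 knockouts (limma adjusted p = 0.073), and the difference between models was 1.45 ± 0.35 (limma adjusted p = 0.23). In Pkd1 and Pkd2 knockouts Cebpa differed by −0.73 ± 0.26 and −0.72 ± 0.26, and Cebpb by 0.48 ± 0.29 and 0.36 ± 0.29. Hnf4g differed by −0.33 ± 0.24 and 0.09 ± 0.24, and Nr5a2 by 0.35 ± 0.27 and 0.58 ± 0.27. None of these was called. The repressors of Afp in liver after birth, Zhx2, Zfhx3 and Zbtb20, were not called in either model, with differences of −0.32 to 0.07 in Pkd1 knockouts and −0.31 to 0.11 in Pkd2 knockouts. Zbtb20 was 0.89 ± 0.21 higher in day 20 than in day 10 controls (limma adjusted p = 0.027), while Zhx2 differed by 0.28 ± 0.19 and Zfhx3 by −0.13 ± 0.19. Foxa1, Foxa2, Foxa3 and Onecut1 had values of at most 0.469 and were not tested. With 1 library left out, 0 (without Pkd1 knockout replicate 1 or Pkd1 control replicate 1) to 3 regulators were called for Pkd1. For Pkd2 the range was 1 (without Pkd2 knockout replicate 2 or either Pkd2 control) to 4. Hnf4a missed the threshold in the Pkd1 comparison without Pkd1 knockout replicate 1 or either Pkd1 control (limma adjusted p = 0.10 to 0.13), and in the Pkd2 comparison without Pkd2 knockout replicate 2 or either Pkd2 control (0.12 to 0.14). Prox1 missed it for Pkd1 without Pkd1 knockout replicate 1 or Pkd1 control replicate 1 (limma adjusted p = 0.060 and 0.072), and for Pkd2 without Pkd2 knockout replicate 2 or either Pkd2 control (0.14 to 0.17).

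Several genes of the uptake route for filtered albumin and vitamin D-binding protein fell in the knockouts. Of 14 genes of filtered protein uptake and recycling, 5 fell and 0 rose in Pkd1 knockouts, and 4 fell and 0 rose in Pkd2 knockouts, with medians of −0.53 and −0.22. The share of all genes tested that fell was 5.48% for Pkd1 and 8.13% for Pkd2, with medians of −0.00207 and −0.00816. Lrp2 (megalin) had values of 339 and 426 in Pkd1 knockouts, 785 and 1035 in Pkd1 controls, 645 and 542 in Pkd2 knockouts, and 1151 and 1669 in Pkd2 controls. It fell by 1.24 ± 0.30 in Pkd1 knockouts and 1.23 ± 0.30 in Pkd2 knockouts (limma adjusted p = 0.032 and 0.023). In Pkd1 and Pkd2 knockouts Cubn fell by 1.55 ± 0.21 and 1.05 ± 0.21, its membrane partner Amn by 1.55 ± 0.35 in each model, and the receptor chaperone Lrpap1 by 1.41 ± 0.23 and 1.00 ± 0.23. The adaptor Dab2, named after its values were seen, fell by 1.15 ± 0.26 in Pkd1 knockouts (limma adjusted p = 0.027) and differed by −0.28 ± 0.26 in Pkd2 knockouts. Fcgrt (likewise named afterwards, as are the lysosomal genes), the receptor that returns albumin to the blood, differed by −0.62 ± 0.21 in Pkd1 knockouts and −0.36 ± 0.21 in Pkd2 knockouts and was not called. Among the lysosomal genes, the protease gene Ctsl differed by −0.62 ± 0.21 in Pkd1 knockouts (limma adjusted p = 0.10) and by 0.09 ± 0.21 in Pkd2 knockouts, while Ctsb, Lgmn and Lamp1 lay within 0.18 of 0 in both, and none was called. With 1 library left out, 1 (without Pkd1 knockout replicate 1 or either Pkd1 control) to 6 uptake genes were called for Pkd1. For Pkd2 the range was 0 (without Pkd2 knockout replicate 2 or Pkd2 control replicate 2) to 6, and 0 were called in a fit on the 4 Pkd2 libraries alone.

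Genes of vitamin D metabolism and response, the cargo of Gc, moved in both directions. Of 12, 2 rose and 2 fell in Pkd1 knockouts, and 2 rose and 5 fell in Pkd2 knockouts, with medians of −0.22 and −0.41. Of all genes tested, 5.11% rose and 5.48% fell in Pkd1 knockouts, and 9.54% rose and 8.13% fell in Pkd2 knockouts. The calcium channel genes rose: Trpv6 had values of 6.17 and 8.23 in Pkd1 knockouts against 1.89 and 1.73 in Pkd1 controls, and 8.83 and 12.8 in Pkd2 knockouts against 1.30 and 1.24 in Pkd2 controls. The differences in Pkd1 and Pkd2 knockouts were 1.53 ± 0.21 and 2.36 ± 0.21 for Trpv6, and 1.23 ± 0.18 and 0.71 ± 0.18 for Trpv5 (limma adjusted p = 0.0045, 0.00060, 0.0054 and 0.031). Kl (klotho, the co-receptor of FGF23) fell by 1.71 ± 0.25 in Pkd1 knockouts and fell by 1.6 ± 0.25 in Pkd2 knockouts (limma adjusted p = 0.0051 and 0.0045). Calb1, a calcium-binding protein gene, fell by 2.39 ± 0.33 in Pkd2 knockouts (limma adjusted p = 0.0028) and differed by −0.86 ± 0.33 in Pkd1 knockouts. The remaining calls, named after their values were seen, were the vitamin D receptor Vdr, lower by 0.86 ± 0.23 in Pkd1 knockouts and 1.16 ± 0.23 in Pkd2 knockouts, and Cyp24a1 and S100g, lower in Pkd2 knockouts by 1.81 ± 0.31 and 2.11 ± 0.63. Cyp27b1, the enzyme that activates vitamin D and also named afterwards, scattered too widely for a call, with values of 0.834 and 20.0 in Pkd1 knockouts, 6.09 and 7.11 in Pkd1 controls, 16.8 and 2.87 in Pkd2 knockouts, and 6.08 and 2.76 in Pkd2 controls. With 1 library left out, 2 (without either Pkd1 control) to 5 genes of this list were called for Pkd1 and 3 (without Pkd2 control replicate 2) to 6 for Pkd2.

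**Figure D5:**
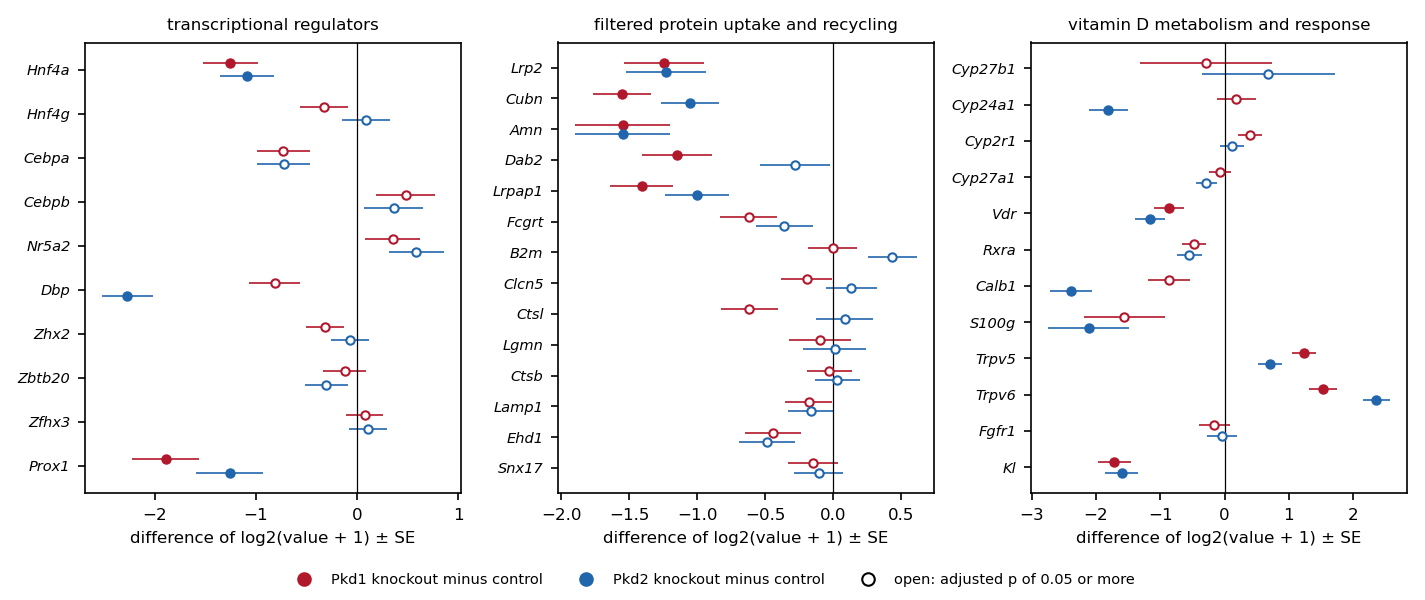
Difference between knockout and control kidneys in log2(deposited value + 1), with its standard error (bars), for tested regulators, uptake genes and vitamin D genes; red is Pkd1, blue is Pkd2, and filled points have a limma adjusted p below 0.05. Hnf4a, Prox1, Lrp2, Cubn, Amn, Lrpap1, Vdr and Kl are filled and below 0 in both models, and Trpv5 and Trpv6 are filled and above 0 in both.

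Per kilobase of exon, Afm had the highest mean value of the family in both day 10 groups and Gc in both day 20 groups. In Pkd1 knockouts the mean values per kb were 2.18 ± 0.104 for Afm, 1.75 ± 0.807 for Gc, 1.38 ± 0.405 for Afp and 0.260 ± 0.105 for Alb (SD, n = 2). There Gc did not differ from Afm or Afp beyond its spread, while Afp lay below Afm. In Pkd1 controls they were 6.04 ± 0.278 for Afm, 5.14 ± 1.1 for Afp, 3.47 ± 0.373 for Gc and 1.70 ± 1.96 for Alb, where Afm and Afp did not differ beyond their spread. In Pkd2 knockouts they were 20.3 ± 19.4 for Gc, 3.85 ± 0.358 for Afm, 0.0838 ± 0.119 for Alb and 0.0759 ± 0.0103 for Afp, where Gc spread over its own mean and Alb and Afp did not differ beyond their spread. In Pkd2 controls they were 51.1 ± 1.42 for Gc, 9.82 ± 1.16 for Afm, 6.37 ± 1.96 for Alb and 0.131 ± 0.0549 for Afp.

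In mIMCD-3 cells Gc values were higher with the Hoxb3os gapmer and rested on few reads. The cell table holds 2016 genes, all with an adjusted p of at most 0.05 in the authors' deposited table, so a gene's presence there is itself a selection. Deposited values in these cells are reads divided by a size factor. Gc had values of 75.0, 78.4 and 49 in Hoxb3os gapmer cells, against 44.3 and 17.3 in control cells. The groups did not overlap, though the lowest gapmer library lay close to the higher control. The mean was 67.5 ± 16.1 in Hoxb3os gapmer cells (SD, n = 3) and 30.8 ± 19.2 in control cells (SD, n = 2), a 2.19-fold difference. The log2 difference was 1.22 ± 0.56 (SE), falling to 0.56 without control replicate 2 and reaching 1.88 without control replicate 1. The moderated log2 fold change in the authors' deposited table was 0.23. Groups did not overlap with gapmer cells higher for 44.4% of the table's genes and lower for 55.5%. Without correction for length, 20 of the 2016 genes had a lower mean value than Gc, and the table's median was 2398. Slc4a4, the gene beside Gc, had values of 265, 218 and 220.0 in Hoxb3os gapmer cells against 306 and 359 in control cells. Vdr had 215, 196 and 195 in Hoxb3os gapmer cells against 276 and 297 in control cells, so these 2 differed in the other direction from Gc. Further listed genes present in the cells went both ways. Dab2, Clcn5, Ctsl, Ehd1 and Igf2bp1 were higher with the Hoxb3os gapmer, as Gc was (log2 differences of 0.15 to 0.33). Rassf6, Zbtb20, Igf2bp2 and Aqp1 were lower (−0.44 to −0.13). Alb, Afp and Afm are not among the rows of that table and were not analysed here in the cells.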

How the data were processed

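RNA was extracted with Trizol and made into TruSeq libraries, per the labels. The tools listed in the submitters' processing notes are RSEM 1.2.22, edgeR, Cufflinks 2.2.1, STAR 2.4.2a and FastQC 0.11.2 for kidneys, and DESeq2 1.12.3, SAMtools 1.0, STAR 2.4.2a and Trimmomatic 0.32 for cells, all with build mm10. The sources used here give no role, annotation or strand setting for them. What the authors deposited for each library is a scaled signal, as judged from the values themselves. Depth was recovered from the steps of low kidney values. Of all kidney values above 0, 92.9% to 95.0% per library were then whole reads within 0.02. The authors' log2 fold changes, as deposited, run control minus knockout in the kidney table, as read from the group means. The likelihood ratio score and the p-values deposited by the authors were not used, except that the cell table's adjusted p-values show it to be a selection.

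The 14637 genes reaching a value of 1 in 2 or more kidney libraries were fitted with limma 3.58.1 (trend, R 4.3.3) on log2(value + 1), with all 8 libraries and 4 groups in 1 fit and Benjamini-Hochberg adjustment (threshold 0.05). A fold change on this scale understates the change of low genes. A test of counts was an alternative: edgeR 4.0.16 quasi-likelihood and DESeq2 1.42.0 on recovered reads. The other alternatives were a pseudocount of 0.1, no filter, quantile scaling, a fit on each model alone, the replicate number as a block, and leaving out each library. The members and gene lists were chosen with earlier results of these data known. Some listed regulators are not reported here, and counts are over the others. Named were the family genes, all neighbours and the reported regulators, up to 4 tested genes of each other list with the smallest adjusted p, the 4 most abundant hepatocyte genes, and the 5 genes nearest in Pearson r to each member (mean value at least 5, without predicted genes). The cell table has no unselected background, so Gc there was described only. No protein sequence was used here.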

Additional observations from a re-analysis of the deposited data

How the results depend on the processing

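Alb, Afp and Gc kept the sign of their differences under every alternative run, which is no added support for them. Dropping the filter, fitting each model alone and the replicate block leave a member's difference unchanged by construction. Where groups do not overlap, leaving out a library or changing the pseudocount cannot reverse a sign. For Alb in Pkd2 knockouts minus controls the log2 difference was −6.05 with a pseudocount of 0.1, −6.28 by DESeq2 and −6.36 by edgeR on recovered reads, and for Alb in Pkd1 it was −2.71 and −2.70 by those tools. For Afp in Pkd2 it was −0.57, −0.81 and −0.84, and for day 20 minus day 10 controls −5.03, −5.25 and −5.25 for Afp and 3.86, 3.91 and 3.90 for Gc under the same 3 settings. A smaller or no pseudocount widens the differences of low values by construction. Leaving out each library gave 0.92 to 3.17 for Alb, −3.87 to −3.45 for Afp and 3.59 to 3.78 for Gc by age, −0.33 to −0.06 for Afp in Pkd2, −1.22 to −0.49 for Gc in Pkd1 and 0.56 to 1.88 for Gc in cells.

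The numbers of genes called were 1550 for Pkd1, 2587 for Pkd2, 1 for the difference between models and 1801 for age. Leaving out each library in turn gave 332 (without Pkd1 control replicate 1) to 2487 for Pkd1, 669 (without Pkd2 control replicate 2) to 4328 (without Pkd2 knockout replicate 1) for Pkd2, 0 to 50 for the difference and 412 to 2571 for age. Over the same leave-outs, the Pkd1 and Pkd2 counts were 0 to 3 and 2 to 7 for the hepatocyte list, 1 to 6 and 0 to 6 for uptake, 3 to 13 and 1 to 13 for proximal tubule, 0 to 3 and 1 to 4 for the regulators, 2 to 5 and 3 to 6 for vitamin D, and 0 to 3 and 0 to 6 for the oncofetal list. Without a filter 790 were called for Pkd1. A fit on each model alone called 1366 for Pkd2. The difference between models had 5 calls with a pseudocount of 0.1, 0 without a filter, 8 after quantile scaling, 184 by DESeq2 and 5 by edgeR. Without a filter, which tests more genes, called members were 0 of the hepatocyte list, 2 of uptake, 0 of the regulators and 1 of the oncofetal list for Pkd1. For Pkd2 they were 1 of uptake, 5 of proximal tubule, 1 of the regulators and 2 of the oncofetal list. A pseudocount of 0.1 left 1 oncofetal call for Pkd1. The fit on each model alone left 0 uptake and 1 oncofetal call for Pkd2, and DESeq2 called 6 hepatocyte genes for Pkd1. Where no construction accounts for a change, the cause was not tested.

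Replicate numbers pair no animals in the labels, and deviations of same-numbered libraries correlated at −0.38 in Pkd1 and −0.05 in Pkd2. With the replicate block, 1044 genes were called for Pkd1 and 1812 for Pkd2, against 0 for the difference between models, 3 uptake genes for Pkd1 and 1 oncofetal gene for Pkd2. The crossed pairing of the Pkd1 libraries, chosen after seeing the data, called 1375 genes and 5 of the hepatocyte list. With 2 libraries per group, and 10 to 26 Afp reads per library at day 20, small differences were not detectable at this depth.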
